A study of Homo sapiens with 4 samples.

Results

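The tripartite motif (TRIM) genes were followed in Caco-2 cells after a short exposure to interferon gamma (IFNγ). Members were all protein-coding genes of the count table whose symbol is TRIM followed by digits, or by digits and 1 letter. The rule found 62 of the 37515 genes in the table, out of 73 such genes in the annotation used for names, and 44 of the 62 had enough counts to be tested. RNA-seq counts were available for 4 libraries of Caco-2 cells, a human colorectal carcinoma line that forms an enterocyte-like layer in culture and whose cells are marked WT in the sample titles. All cells were kept for 15 days in transwells. The 2 unstimulated libraries came from control cells in medium at 0 h, and the 2 IFNγ libraries from cells given 60 ng/ml IFNγ in the basal compartment for 3 h. The effect of IFNγ and that of the 3 h in between cannot be told apart in this comparison.

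TRIM proteins are defined by a RING finger, 1 or more B-box zinc fingers and a coiled coil. The RING finger recruits an E2 enzyme and passes ubiquitin, or a related modifier, to a target that is chosen mainly by the carboxy-terminal domain. Interferons raise many family members in other cells, and several of them act on viral capsids, on RNA sensors such as RIG-I or on the adaptors and kinases that carry the signal onward. Promoters that answer to IFNγ often hold the GAS motif, or the interferon-stimulated response element (ISRE), which IRF1 binds.

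Libraries held 7171455 to 10365346 counts, so that 3 counts, taken here as the lowest level that can be read, stood for 0.289 to 0.418 CPM, the usual unit in which the counts of a gene are scaled to a common library total. Levels of genes are CPM after TMM scaling, which corrects for differences in library composition. Replicate 1 was the deeper in both groups. The enterocyte marker genes summed to 8042 to 10130 CPM per library, with 13 of 14 tested and CDX1 at 5 counts or fewer. CDX2 was called higher (7.69%, against 2.88% of all genes) and SI lower (7.69%, against 4.4%). SI did not pass in DESeq2 (adjusted p = 0.0536), nor in edgeR with the trend described below removed (adjusted p = 0.0682). By the adjusted p-value alone 4 markers were higher (30.8%, against 9.02%), namely CDX2, KRT8, KRT18 and ALPI. Markers of leukocytes summed to 20.45 to 26.47 CPM and those of endothelium to 1.26 to 2.32 CPM. Fibroblast markers summed to 104.2 to 198.5 CPM, of which COL1A1 alone gave 89.4 to 179.4 CPM. COL1A2, THY1 and DCN had at most 1 count in any library. Among genes used to check the IFNγ label, IRF1, TAP1, PSMB9, GBP1 and GBP2 were called higher, with log2 fold changes from 1.24 to 5.86. SOCS1, IRF9 and STAT2 were not called (2.29, 1.43 and 0.47), and CIITA was too low to be tested. Log2 fold changes rose with the GC content of the transcript over the 14518 tested genes with a known sequence (Spearman rho = 0.43, across genes, which are not independent replicates), so values with this trend removed are given for the members that it moved by over 0.2.

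Promoter windows of 6 members are shown first because they hold the motif of an interferon-driven factor beside genes that rose and genes that did not. The letters are those of RefSeq (GRCh38.p14), which held the window from 250 bases before to 50 bases after a start site for 49 of the 62 members. Matches to the ISRE core GAAANNGAAA, or to the GAS motif TTCNNNGAA in TRIM40, on either strand are in capitals, and each stretch is written 5′ to 3′ on the strand of its gene. TRIM21 (chr11:4393663-4393692, minus strand, just inside the transcript), TRIM26 (chr6:30213537-30213636, minus strand), TRIM69 (chr15:44736428-44736527, plus strand) and TRIM40 (chr6:30136633-30136732, plus strand) were called higher. TRIM5 (chr11:5685075-5685174, minus strand) and TRIM14 (chr9:98119223-98119322, minus strand) were tested and not called.
TRIM21: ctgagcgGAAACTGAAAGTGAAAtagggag
TRIM26: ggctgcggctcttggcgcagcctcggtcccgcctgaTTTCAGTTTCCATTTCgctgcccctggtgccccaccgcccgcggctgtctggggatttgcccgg
TRIM69: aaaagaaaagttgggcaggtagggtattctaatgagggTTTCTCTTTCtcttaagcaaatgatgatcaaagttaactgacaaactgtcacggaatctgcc
TRIM40: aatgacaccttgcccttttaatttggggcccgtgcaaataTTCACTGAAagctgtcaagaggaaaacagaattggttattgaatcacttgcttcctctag
TRIM5: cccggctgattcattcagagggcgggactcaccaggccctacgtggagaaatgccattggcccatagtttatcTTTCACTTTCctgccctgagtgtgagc
TRIM14: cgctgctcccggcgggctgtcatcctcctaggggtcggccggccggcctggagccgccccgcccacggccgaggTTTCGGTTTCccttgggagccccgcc

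The ISRE core was present in the windows of 9 of the 49 members (18.4%), against 1195 of 27305 RefSeq genes (4.38%). It was found in 3 of 5 members called higher that had a window (TRIM21, TRIM26 and TRIM69), in 5 of 28 tested and not called (TRIM2, TRIM5, TRIM14, TRIM16 and TRIM44), and in 1 of 15 that were not tested (TRIM34). In TRIM21 and in TRIM26 there were 2 overlapping matches, seen above as 1 longer run of capitals. The GAS motif was also in 9 of the 49 members (18.4%), against 9.38% of RefSeq genes, namely in TRIM40 and TRIM15, which rose, in TRIM2, TRIM3, TRIM7 and TRIM16, which did not pass, and in TRIM46, TRIM49 and TRIM49C, which were not tested. By call, these were 1 of 5 members called higher (20%), 5 of 28 tested and not called (17.9%) and 3 of 15 not tested (20%). These matches describe the letters of a 300-base window and not the binding of a factor. TRIM29 and TRIM35, which were called higher, were not matched to a window.

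Did the family rise with IFNγ? A gene was called when its Benjamini-Hochberg adjusted p-value over all 14820 tested genes was under 0.05 in edgeR's quasi-likelihood test and its log2 fold change was above 1 in either direction. Of the 44 tested members, 7 were called higher (15.9%), against 2.88% of all tested genes, and 1 was called lower (2.27%), against 4.4%. By the adjusted p-value alone 10 members were higher (22.7%, against 9.02% of all genes) and 4 were lower (9.09%, against 11%). The remaining 30 members did not pass. The CPM of the groups did not overlap in 25 of 44 members (56.8%), a share below the 62.4% of all tested genes. The median log2 fold change of the tested members was 0.08 (range −2.13 to 4.68), beside −0.01 for all genes, with 30 members above 0 and 14 below. With the GC and length trend removed the medians were 0.17 and 0.02. With that trend removed, all genes split into 426 higher and 313 lower instead of 427 and 652, and the members again into 7 and 1. The labels do not say that replicates were separate cultures, so that p-values measure only the spread between these libraries.

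**Figure D1:**
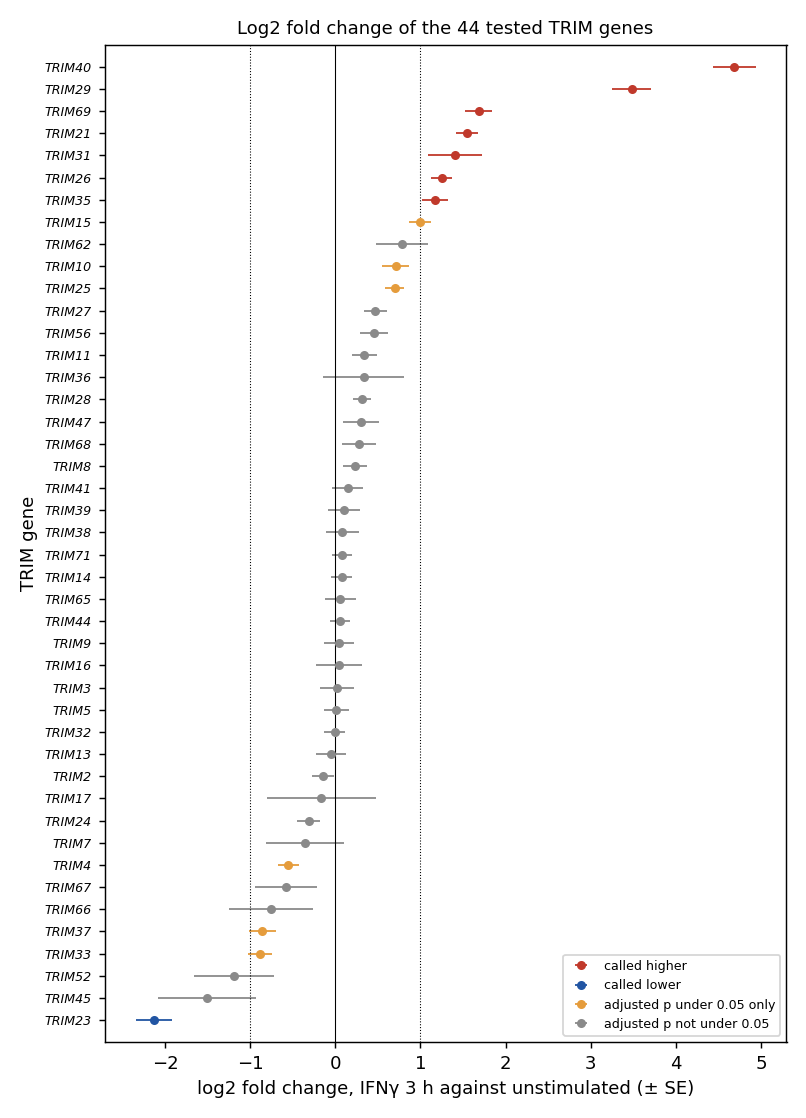
Log2 fold change (x axis, IFNγ 3 h against unstimulated, ± SE from edgeR, 2 libraries per group) of the 44 tested TRIM genes (y axis), coloured by call, with dotted lines at −1 and 1. TRIM40 and TRIM29 stand apart at 4.68 and 3.48, TRIM23 lies lowest at −2.13, and most genes lie close to 0.

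TRIM40 and TRIM29 went from low levels to clear expression. TRIM40 (ENSG00000204614, GRCh37 chr6:30103901-30116512, plus strand) is a short RING protein of the gut epithelium that has been linked to restraint of NFκB signaling. It had 1.75 and 0.98 CPM (18 and 7 counts) in the unstimulated libraries and 38.2 and 35.5 CPM (393 and 260 counts) after IFNγ. The groups were far apart, and the log2 fold change was 4.68 ± 0.25 (SE, adjusted p = 0.000194), or 25.7-fold. Per kilobase of exon, its level moved from rank 39 to rank 7 in the family. In bulk RNA, a change in the share of cells that express a gene and a change in the RNA per cell cannot be told apart.

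TRIM29 (ENSG00000137699, GRCh37 chr11:119981994-120056237, minus strand) belongs to the members that lack a RING finger and is known from stratified and other epithelia. Its level was 2.82 and 1.96 CPM in unstimulated cells and 29.3 and 25.4 CPM after IFNγ. The log2 fold change was 3.48 ± 0.23 (adjusted p = 0.000448), or 11.1-fold. Both genes kept their call under every alternative in which they were tested. TRIM40 was not tested where 10 counts were required in every library, since 1 unstimulated library had 7.

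TRIM21 and TRIM69 rose about as much as each other, from higher starting levels. TRIM21 (ENSG00000132109, GRCh37 chr11:4406127-4414932, minus strand) is the cytosolic receptor for the Fc part of antibodies, which marks antibody-coated viruses for the proteasome. It was at 30.6 and 32.9 CPM unstimulated and at 89.6 and 96.1 CPM after IFNγ, a log2 fold change of 1.55 ± 0.13 (adjusted p = 0.000912). TRIM69 (ENSG00000185880, GRCh37 chr15:45021186-45060027, plus strand), an interferon-induced inhibitor of some RNA viruses, was at 12.2 and 13.9 CPM and then at 40.5 and 42.8 CPM. Its log2 fold change was 1.68 ± 0.15 (adjusted p = 0.00127). It was the called gene with the lowest GC content among those that rose (41.1%), and with the GC trend removed its log2 fold change was 2.01. In both genes the libraries of a group lay close together and the groups did not overlap.

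TRIM26, TRIM35 and TRIM31 also passed both thresholds. TRIM26 (ENSG00000234127, GRCh37 chr6:30152232-30181204, minus strand), which has been described as a regulator of IRF3 turnover, had 50.7 and 56.7 CPM unstimulated and 126.7 and 128.5 CPM after IFNγ (log2 fold change 1.25 ± 0.12, adjusted p = 0.0015). TRIM35 (ENSG00000104228), described as a regulator of IRF7 turnover, had 20.8 and 20.2 CPM and then 42.4 and 50.1 CPM (log2 fold change 1.17 ± 0.15, adjusted p = 0.00346). TRIM31, a ligase that acts on MAVS and on the NLRP3 inflammasome protein, was low, with 3.7 and 3.22 CPM unstimulated. After IFNγ its 2 libraries differed from each other, at 11.4 and 6.96 CPM, although both lay above the controls. Its log2 fold change of 1.41 ± 0.32 (adjusted p = 0.0213) rested on single libraries. Without IFNγ replicate 1 the log2 fold change was 0.98 (adjusted p = 0.0921), and without unstimulated replicate 2 the adjusted p was 0.0651, within a range of 3.18e-05 to 0.0921 over the 13 alternatives. An antisense gene covers 4.95% of its exons.

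A further 3 members rose by the adjusted p-value without reaching the fold threshold. TRIM15, a ligase of focal adhesions, was at 39.7 and 44.7 CPM unstimulated and at 84.9 and 82.7 CPM after IFNγ, which put its log2 fold change at 0.99 ± 0.13 (adjusted p = 0.00339), just short of the threshold. It was called with upper quartile scaling (1.03), with no filter on low counts (1.01) and without unstimulated replicate 2 (1.08), and stood at 0.76 with the GC and length trend removed. TRIM25, which adds ubiquitin chains to RIG-I, was among the more abundant members by counts, with 121.6 and 118 CPM against 196.6 and 191.7 CPM (log2 fold change 0.70, adjusted p = 0.00592). TRIM10, known from red cell development, was at 14.5 and 16.4 CPM and then at 25.6 and 24.8 CPM (log2 fold change 0.71, adjusted p = 0.0203). The adjusted p of TRIM10 was 0.11 without unstimulated replicate 1, the highest of its 13 alternatives, and the lowest was 0.00155. None of these 3 genes, picked by their adjusted p, had overlapping groups, as in 62.4% of all tested genes.

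**Figure D2:**
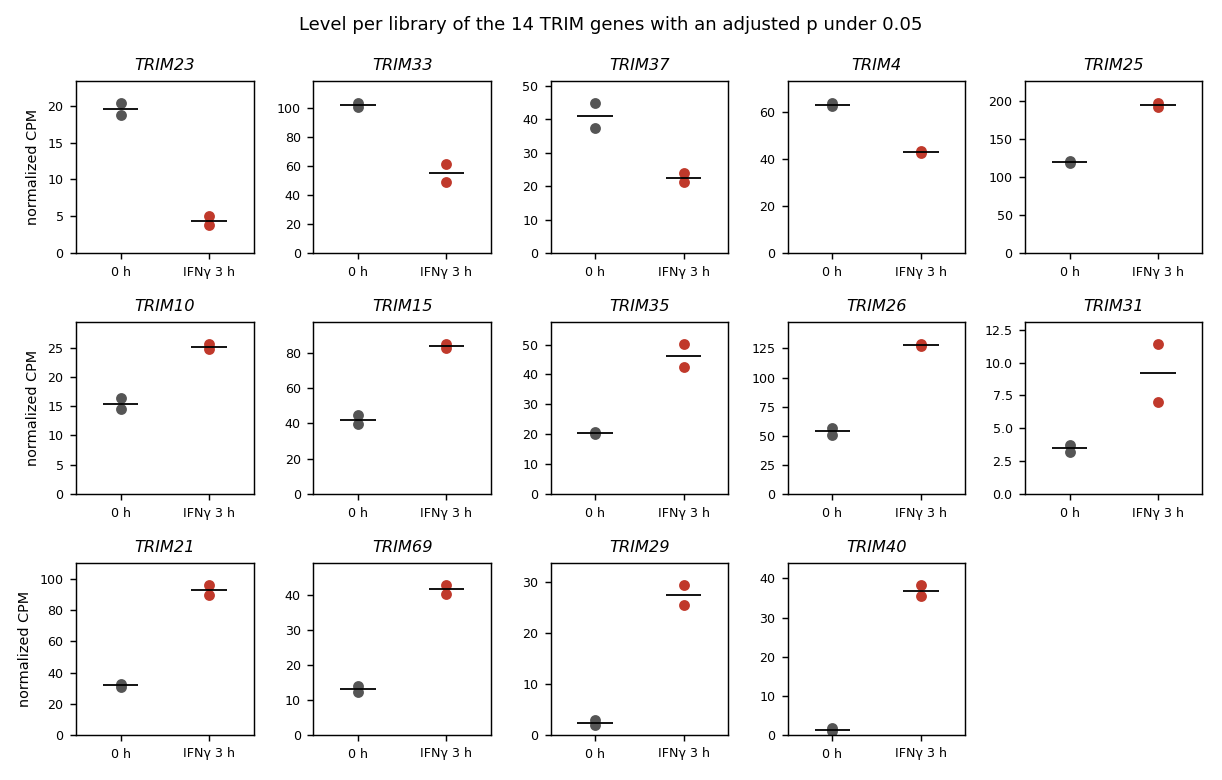
Normalized CPM (y axis, linear, from 0) in each library for the 14 TRIM genes with an adjusted p under 0.05, ordered by log2 fold change; points are libraries, lines are means of 2 libraries, and each panel has its own scale. The panels were picked by the adjusted p from these same libraries, so that groups apart in all 14 add no support. Among all tested genes 62.4% have groups apart. The libraries of TRIM31 after IFNγ differ at 11.4 and 6.96 CPM.

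Several of the genes that rose lie beside each other on the short arm of chromosome 6, at the edge of the class I genes of the major histocompatibility complex. The 8 members of the extended region (TRIM10, TRIM15, TRIM26, TRIM27, TRIM31, TRIM38, TRIM39 and TRIM40) were all tested. Of these, 3 were called higher (37.5%, against 2.88% of all genes) and 5 were higher by the adjusted p-value (62.5%, against 9.02%), none was lower in edgeR or DESeq2 (also 0 at an unadjusted p under 0.05), and their median lay at 0.85 on the log2 scale. Their summed level went from 193.5 and 196.3 CPM to 387.4 and 370.4 CPM. TRIM31, TRIM40, TRIM10, TRIM15, TRIM26 and TRIM39 lie within 240.8 kb on GRCh37, on alternating strands. All of these but TRIM39 passed the adjusted p-value. TRIM39, at the far end, had a log2 fold change of 0.11 ± 0.19, and its groups overlapped. Its counts are uncertain, since the readthrough TRIM39-RPP21 shares 29.5% of its exons and a gene on the opposite strand covers 15.2%. TRIM27, a ligase with a B30.2 domain outside this block, did not pass (0.47 ± 0.14, adjusted p = 0.0511), although its groups did not overlap.

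**Figure D3:**
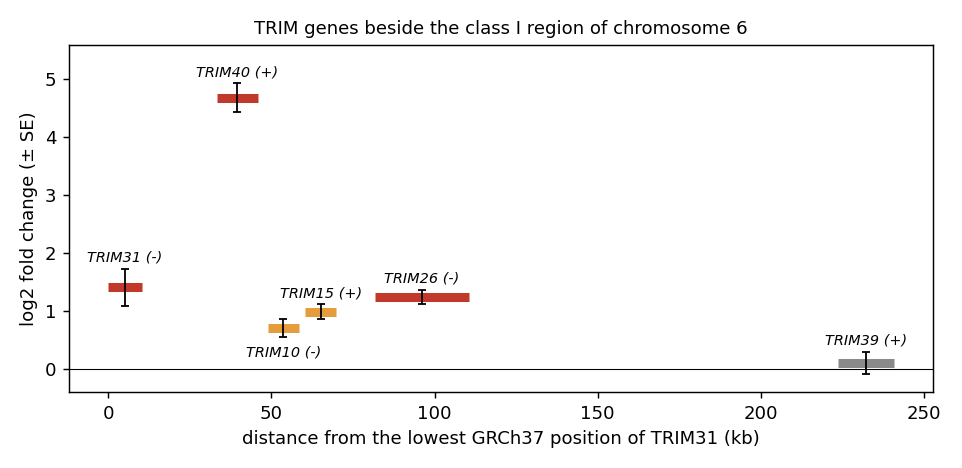
Log2 fold change (y axis, ± SE, 2 libraries per group) of 6 neighbouring TRIM genes against their position in kb from the lowest position of TRIM31 (x axis); bars span the gene, signs give the strand, and colours mark genes called higher (red), past the adjusted p only (orange) or neither (grey). The first 5 genes, within 110.5 kb, lie above 0 from 0.71 to 4.68, and TRIM39 lies near 0.

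The 13 members known to be raised by interferons in other cells were of unequal change. Of these, 10 were tested, of which 5 (50%, against 2.88% of all genes) were called higher (TRIM21, TRIM26, TRIM31, TRIM35 and TRIM69), TRIM25 passed the adjusted p-value only, and 4 did not pass. All 10 had a positive log2 fold change, from 0.01 to 1.68, with a median of 0.93. The list was drawn up with earlier results of these libraries known, and its counts are a description. The 4 that did not pass include known antiviral factors. TRIM5, which recognizes retroviral capsids, was at 22.9 and 24.4 CPM unstimulated and at 23.5 and 24 CPM after IFNγ (log2 fold change 0.01 ± 0.15). TRIM14, an adaptor without a RING finger that binds MAVS, was at 116.6 and 104 CPM and then at 122.2 and 110.2 CPM (0.08 ± 0.12). TRIM38, which restrains Toll-like receptor signaling, had a log2 fold change of 0.08 ± 0.19, or 0.54 with the GC and length trend removed (adjusted p = 0.051), and the groups of TRIM5, TRIM14 and TRIM38 all overlapped. TRIM56, which acts on STING and on viral RNA, went from 36.3 and 29.7 CPM to 49.8 and 40.8 CPM without overlap (0.46 ± 0.17, adjusted p = 0.0977). The ISRE core in the windows of TRIM5 and TRIM14 shown above thus went with log2 fold changes near 0, and those in TRIM21, TRIM26 and TRIM69 with called increases.

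The remaining 3 genes of that list, TRIM6, TRIM22 and TRIM34, lie next to TRIM5 on chromosome 11 and were too low to be tested. TRIM22, an interferon-induced inhibitor of several viruses, had 7 and 6 counts unstimulated and 23 and 8 counts after IFNγ. TRIM6, which makes unanchored ubiquitin chains for IKKε, had 2 to 6 counts per library. TRIM34 had 3 counts in 1 unstimulated library and 0 in the others. Exons of the readthrough transcript TRIM6-TRIM34 cover 83.6% of TRIM34 and 29.2% of TRIM6, so that reads of these genes could have been left uncounted or assigned elsewhere. Over all 8 members at 11p15, 5 were tested, with a median log2 fold change of 0.02. Of these TRIM21 passed both rules (20%, against 2.88% of all genes called higher and 9.02% by the adjusted p-value). The others passed neither. TRIM3, which carries an NHL domain, was at 0.02 ± 0.20, and TRIM68, a ligase described with the androgen receptor, at 0.28 ± 0.20 (adjusted p = 0.363).

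TRIM23 was the only member called lower in edgeR's test as described above. TRIM23 (ENSG00000113595, GRCh37 chr5:64885517-64921802, minus strand) carries an ARF-type GTPase domain at its end and works in autophagy and antiviral signaling. It was at 18.7 and 20.3 CPM unstimulated and at 4.96 and 3.82 CPM after IFNγ, without overlap (log2 fold change −2.13 ± 0.21, adjusted p = 0.00154). Its GC content was 36%, the lowest of the tested members, and with the GC and length trend removed its log2 fold change was −1.60 and it was still called. Its level per kilobase moved from rank 19 to rank 39 in the family.

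Another 3 members were lower by the adjusted p-value alone. TRIM33, also called TIF1γ, binds modified histones and SMAD4 in TGF-β signaling, and was at 102.9 and 100.2 CPM unstimulated and at 61.1 and 49.1 CPM after IFNγ (log2 fold change −0.88, adjusted p = 0.00644). With the GC and length trend removed it no longer passed (−0.38, adjusted p = 0.0741), while over all 13 alternatives the adjusted p ranged from 7.18e-07 to 0.0741. TRIM37, a centrosomal ligase with a MATH domain, went from 37.3 and 44.7 CPM to 23.8 and 21.2 CPM (−0.86, adjusted p = 0.0107), and genes on the opposite strand cover 11.1% of its exons. TRIM4, which has been described to ubiquitinate RIG-I, went from 62.8 and 63.8 CPM to 42.6 and 43.7 CPM (−0.55, adjusted p = 0.0198). TRIM4 did not pass when either unstimulated library was left out (adjusted p = 0.0633 and 0.069), and the lowest of its alternatives was 0.000179.

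Some fitted decreases came with a wide spread within groups. TRIM45, TRIM52 and TRIM66 stood at −1.51, −1.19 and −0.75 on the log2 scale (adjusted p = 0.105, 0.114 and 0.318). TRIM45 and TRIM52 are named here because of these values. TRIM52, a RING and B-box protein without a coiled coil, was at 37.9 and 16.7 CPM unstimulated and at 16.8 and 6.82 CPM after IFNγ. TRIM66, a relative of TRIM24 and TRIM28, was at 46.1 and 19.3 CPM and then at 28 and 10.5 CPM. TRIM45 was at 4.38 and 2.1 CPM and then at 1.65 and 0.55 CPM. In all 3 genes replicate 1 was above replicate 2 in both groups, and the groups of TRIM52 and TRIM66 overlapped. Between same-numbered libraries the log2 fold changes were −1.31 and −1.54 for TRIM45, −1.16 and −1.26 for TRIM52, and −0.71 and −0.86 for TRIM66. With a replicate block their adjusted p in edgeR was 0.0147, 0.000903 and 0.00379. The labels do not say that a number marks a shared culture. Without IFNγ replicate 1, which leaves 1 library in that group, TRIM45, TRIM52, TRIM66 and TRIM33 stood at −2.59, −2.04, −1.68 and −1.06. Without unstimulated replicate 1 the log2 fold change of TRIM66 was 0.02. A gene on the opposite strand covers 27.6% of the exons of TRIM52.

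Members were also grouped by domain, each in 1 group, so that a COS member that also ends in a PRY-SPRY domain counts as COS. Those called higher were in the PRY-SPRY group and in the group without a common domain. The COS, NHL and PHD-bromodomain groups, described below, held only 3, 4 and 4 tested members, too few to compare shares. PRY-SPRY domains bind the target in TRIM5, TRIM21 and TRIM25. Of 22 tested PRY-SPRY members, 4 were called higher (18.2%, against 2.88% of all genes), namely TRIM21, TRIM26, TRIM35 and TRIM69. That share was close to the 15.9% of all tested TRIM members. By the adjusted p-value 7 were higher (31.8%, against 9.02%) and 1 was lower (4.55%, against 11%), with a median of 0.29 on the log2 scale. The 14 that did not pass were TRIM5, TRIM7, TRIM11, TRIM14, TRIM16, TRIM17, TRIM27, TRIM38, TRIM39, TRIM41, TRIM47, TRIM62, TRIM65 and TRIM68. Among these 14 the most positive value was that of TRIM62 (0.78 ± 0.30, adjusted p = 0.112) and the most negative that of TRIM7 (−0.36 ± 0.46). Of the 11 tested members with other or no such domains, 3 were called higher (27.3%, against 2.88% of all genes), namely TRIM29, TRIM31 and TRIM40, and 1 was called lower (9.09%, against 4.4%), namely TRIM23, and TRIM37 passed the adjusted p-value only. TRIM8, TRIM13, TRIM44, TRIM45, TRIM52 and TRIM56 did not pass.

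No tested member with a NHL or COS domain passed in edgeR's test as described above, and 0 of these 7 had an unadjusted p under 0.05. DESeq2 gave no adjusted p for TRIM36 and TRIM67, and the others did not pass there. The NHL members TRIM2, TRIM3, TRIM32 and TRIM71, of which TRIM71 is a repressor of mRNAs in early development, had log2 fold changes from −0.14 to 0.08, and their summed level was 286.4 to 290.3 CPM unstimulated and 274.4 to 299 CPM after IFNγ. The COS domain marks microtubule-bound members, and TRIM9, TRIM36 and TRIM67 were tested with values of 0.05, 0.33 and −0.58. Of the relatives with other names, described below, the microtubule-bound MID1 was called lower (−1.33) and MID2 was not called (0.81). The members with a PHD finger and a bromodomain, which act in the nucleus, were TRIM24, TRIM28, TRIM33 and TRIM66. Their median was −0.53, and only TRIM33 passed the adjusted p-value. TRIM28, the KAP1 corepressor of KRAB zinc finger proteins, was at 282.3 and 279.2 CPM unstimulated and at 340.5 and 355.4 CPM after IFNγ. Its groups did not overlap, and its log2 fold change was 0.31 ± 0.10 (adjusted p = 0.0778), or 0.08 with the GC trend removed. TRIM24 was at 112.3 and 132.4 CPM and then at 103.5 and 93.2 CPM (−0.31 ± 0.13, adjusted p = 0.137).

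Of 11 partners of these nuclear members, which form heterochromatin or carry TGF-β signals, none was called, 4 were lower by the adjusted p-value in edgeR and 4 in DESeq2 (CBX3, CBX5, MORC3 and SMAD4 in both), and the median log2 fold change was −0.27. At an unadjusted p under 0.05, 5 were lower and 1 was higher. SMAD4, the partner of TRIM33, had 481 and 373 counts unstimulated and 304 and 189 after IFNγ (−0.83, adjusted p = 0.00892). The heterochromatin protein CBX3 had a log2 fold change of −0.72. The share that was lower, 36.4%, stands beside 11% of all genes, and the median GC content of these partners was 41.8%, against 47.9% of all genes. With the GC and length trend removed none of the 4 passed: CBX3, MORC3 and SMAD4 stood at −0.43, −0.42 and −0.41 and CBX5 at 0.07.

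In RPKM, which is CPM divided by the kilobases of exon of a gene, TRIM28 was the highest member in both groups, with 65.2 RPKM unstimulated and 80.8 after IFNγ. TRIM14, TRIM15, TRIM21 and TRIM24 followed in unstimulated cells with 20.1, 16.8, 16.4 and 13.2 RPKM. Among these the libraries of TRIM15 (15.8 and 17.8 RPKM) and TRIM21 (15.8 and 17 RPKM) overlapped, so their order could not be told from these libraries, and those of TRIM24 (12.1 and 14.2 RPKM) overlapped with those of TRIM4. After IFNγ the order was TRIM28, TRIM21 (48 RPKM), TRIM15 (33.4), TRIM26 (29.2) and TRIM14 (21.2). In these cells the Fc receptor TRIM21 thus had more than the level of TRIM14 after stimulation and less before it. The summed level of all members was 1823 and 1774 CPM unstimulated and 2212 and 2093 CPM after IFNγ.

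**Figure D4:**
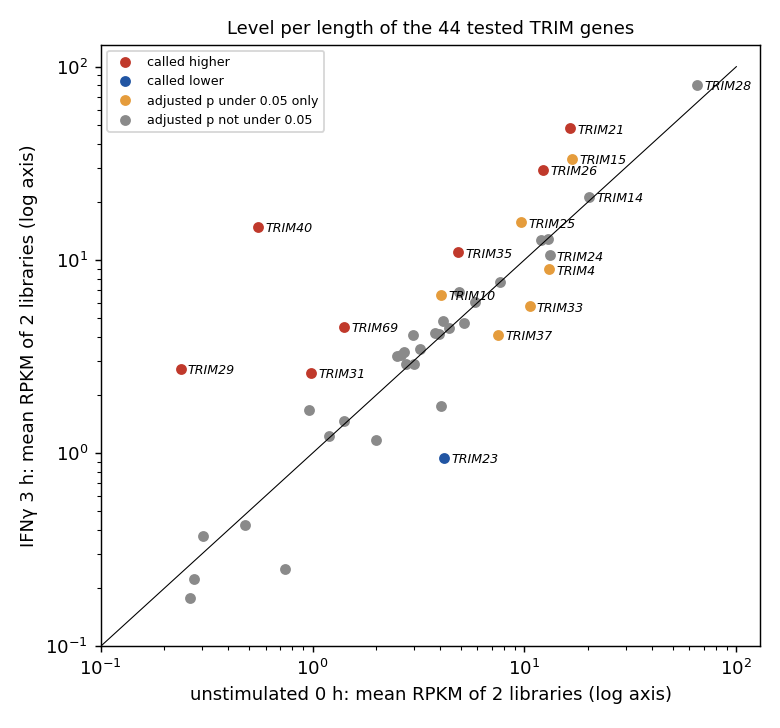
Mean RPKM of 2 libraries after IFNγ (y axis, log scale) against unstimulated cells (x axis, log scale) for the 44 tested TRIM genes, coloured by call, with the line of equal level. TRIM40 and TRIM29 lie far above the line at low unstimulated levels, TRIM21 lies above it at 16.4 and 48 RPKM, and TRIM23 lies below it.

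The GC content of the members was set beside their change, since the trend over all genes could enter any of these values. Over the 44 tested members the log2 fold change and GC content gave a Spearman rho of 0.36, as a description across genes of the same 4 libraries. The 7 genes called higher had a median GC content of 52.2% (range 41.1% to 58.7%), against 50.7% over the tested members. With the trend removed these 7 and TRIM23 were still called. TRIM40, TRIM29, TRIM21, TRIM31, TRIM26 and TRIM35 then had log2 fold changes of 4.51, 3.26, 1.43, 1.31, 1.04 and 1.03, and TRIM15 had 0.76. TRIM27, TRIM44 and TRIM56 passed the adjusted p-value with the trend removed and not as fitted, and TRIM33 the reverse. In all, 19 of the 44 members moved by over 0.2 on the log2 scale, from −0.24 to 0.53. Besides those above, TRIM38 moved from 0.08 to 0.54 (adjusted p = 0.051), TRIM44 from 0.05 to 0.50 (adjusted p = 0.0377), TRIM13 from −0.05 to 0.40, TRIM2 from −0.14 to 0.31 and TRIM36 from 0.33 to 0.74. TRIM24 moved from −0.31 to 0.04 and TRIM5 from 0.01 to 0.23, while TRIM8, TRIM47, TRIM62, TRIM65 and TRIM17 came down to 0.02, 0.06, 0.58, −0.15 and −0.38. TRIM44 was the only one of these 12 members past an adjusted p of 0.05.

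**Figure D5:**
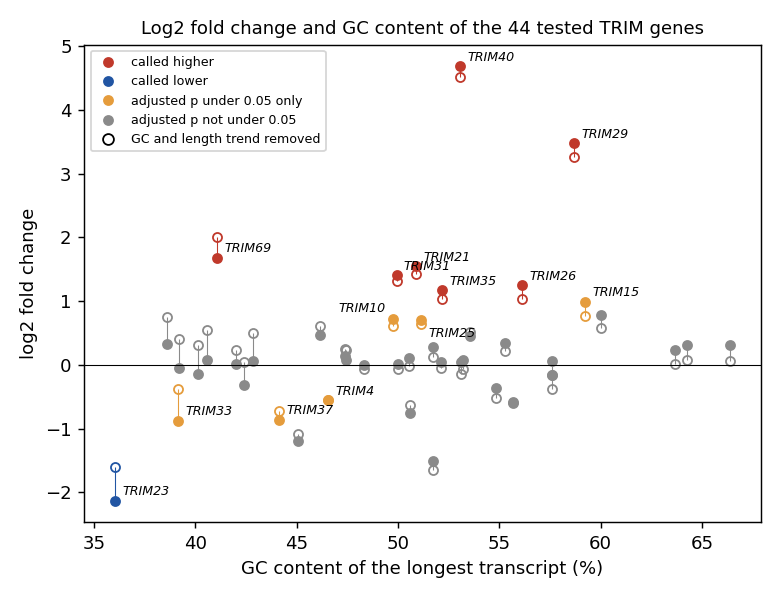
Log2 fold change (y axis) against GC content of the longest transcript in percent (x axis) for the 44 tested TRIM genes; filled points are the values as fitted, open points those with the GC and length trend removed, joined by a line for each gene. Values at low GC move up, as for TRIM23 from −2.13 to −1.60, and values at high GC move down, while TRIM40 and TRIM29 lie above 3 in both.

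Genes that work with TRIM ligases were compared in the same test. Of 14 E2 enzymes, UBE2L6 was the 1 called higher (7.14%, against 2.88% of all genes), and the other 13 did not pass in edgeR. UBE2D2 (0.42, adjusted p = 0.0647 in edgeR) passed as higher in DESeq2 (adjusted p = 0.0496). UBE2L6, which passes the ubiquitin-like protein ISG15, had 127 and 119 counts unstimulated and 448 and 324 after IFNγ (log2 fold change 1.61, adjusted p = 0.00212). With the GC and length trend removed UBE2L6 stood at 1.41. A further 6 E2 genes then passed the adjusted p-value as higher (UBE2D1, UBE2D2, UBE2D3, UBE2K, UBE2N and UBE2V2, from 0.52 to 0.91). The median GC content of the list was 41.2%, against 47.9% of all genes. The share of all genes past the adjusted p-value in that fit was not computed, so this count has no background beside it. Of 13 tested sensors and signal carriers, 1 was called higher (7.69%, against 2.88% of all genes). It was the antiviral zinc finger protein ZC3HAV1, an interaction partner of TRIM25, with 612 and 470 counts and then 2029 and 1228 counts (1.54, adjusted p = 0.00115). IRF7 was higher by the adjusted p-value only (0.87), and the kinase MAP3K7 and its adaptor TAB2 were lower (−0.75 and −0.73). By the adjusted p-value 2 of this list were thus higher (15.4%, against 9.02% of all genes) and 2 lower (15.4%, against 11%). The RNA sensors RIGI and IFIH1 had log2 fold changes of 0.43 and 0.41 and the adaptor MAVS −0.04, none past the threshold. TBK1 (−0.92, adjusted p = 0.108 in edgeR) passed as lower in DESeq2 (adjusted p = 0.0355), and its IFNγ libraries differed, at 26.8 and 11.1 CPM. With the GC and length trend removed RIGI passed (0.79, adjusted p = 0.0243), while MAP3K7 and TAB2 did not (−0.34 and −0.37). Of 7 relatives of the family with other names, 4 were tested, of which 1 was called lower (25%, against 4.4% of all genes). MID1, a microtubule-bound ligase also known as TRIM18, was called lower, with 620 and 378 counts unstimulated and 218 and 177 after IFNγ (−1.33, adjusted p = 0.00225). PML, which builds nuclear bodies and is also known as TRIM19, stood at 0.38 (adjusted p = 0.122).

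The 18 members that were not tested had at most 23 counts in any library. TRIM60, TRIM61 and TRIM75 had 0 counts in all 4 libraries, which allows up to 0.418 CPM in the shallowest library, by counting error only. A further 8 had no library over 3 counts (TRIM34, TRIM42, TRIM49, TRIM54, TRIM55, TRIM72, TRIM73 and TRIM74), among them the muscle ligases TRIM54, TRIM55 and TRIM72. TRIM46, TRIM50 and TRIM63 had 4 counts or fewer. TRIM6, TRIM22, TRIM49C and TRIM59 had up to 6, 23, 7 and 10 counts. TRIM49 and TRIM49C, and TRIM73 and TRIM74, have near-identical copies in the genome, so that low counts of these genes are uncertain, and so is TRIM16, whose copy TRIM16L shares much of its sequence. At this depth a change in the untested members was not detectable.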

How the data were processed

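Total RNA of 4 Caco-2 samples was isolated with mirVana and prepared with TruSeq. The deposited values are counts of reads on Ensembl genes, not normalized by the authors. The submitters' processing notes name HISAT 0.5.1 and HTSeq 0.6.1p1, without roles or order, and the genome build, annotation and strand setting are not given in the sources used here. Symbols, exon lengths and GRCh37 coordinates came from a GENCODE annotation, which paired 36212 of 37515 identifiers. Gene models on both strands were checked for exon overlap.

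Counts were tested with edgeR 4.0.16 (R 4.3.3) with TMM scaling, filterByExpr and the quasi-likelihood test, and p-values were adjusted over 14820 genes. SE is the log2 fold change divided by the root of the F statistic. RPKM is normalized CPM per kilobase of union exons. The steps were tested on simulated data with 4-fold changes in 200 of 14820 genes. The main fit recovered 92.9% of these, with 6.91% of its calls false, above the 5% aimed at. The share of false calls was 9.18% with the replicate block, and it was also higher than in the main fit with 1 library left out. Named were all members past an adjusted p of 0.05, the 5 with the highest RPKM, the interferon-linked and 11p15 lists, and members at 0. Members and lists were chosen with earlier results of these data known. A gene of the list that checks the IFNγ label is not reported here.

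The alternatives were other scalings, DESeq2 1.42.0, other filters and thresholds, a replicate block, each library left out, and a loess trend of GC content and length removed (span 0.3).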

Additional observations from a re-analysis of the deposited data

How the results depend on the processing

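The 8 called members kept their direction under all alternatives tried, and TRIM31 was the only one tested to lose its call, without unstimulated replicate 2, without IFNγ replicate 1, or at an adjusted p under 0.01. TRIM15 gained a call with upper quartile scaling, with no filter and without unstimulated replicate 2. Members called higher numbered 6 to 10 over all alternatives. Members called lower were 3 with no filter on low counts, 3 with the replicate block and 3 with the block and the GC trend removed together, 4 with no fold threshold, 2 with relatives added, and 1 to 5 with single libraries left out. Over all genes 1337 were higher and 1626 lower with no fold threshold, 313 were lower with the GC trend removed, and 504 to 1239 were lower with single libraries left out, the highest without IFNγ replicate 1. Of the other lists, 7 genes were lower with no fold threshold and 1 to 4 with single libraries left out. The median of all genes was 0.034 with upper quartile scaling, −0.050 with library size only, 0.001 with 10 counts in every library, 0.023 with the GC trend removed, with or without the block, and −0.030 to 0.009 with single libraries left out. The median of the members lay between 0.03 and 0.17 throughout. The replicate numbers do not mark a shared culture in the labels. Deviations of same-numbered libraries correlated at r = 0.415 over genes, and with the block 14 members were higher and 7 lower by the adjusted p-value, against 10 and 4 without it. The block called TRIM52 and TRIM45 lower beside TRIM23 (adjusted p = 0.000903 and 0.0147), and TRIM66 passed its adjusted p (0.00379). With the block and the GC trend removed 17 were higher and 7 lower, the NHL members TRIM2 and TRIM71 among the higher.

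Reversals of sign were seen in members that were not called. With the GC trend removed the log2 fold changes were 0.311 for TRIM2, −0.068 for TRIM3, −0.047 for TRIM9, 0.401 for TRIM13, −0.070 for TRIM14, −0.138 for TRIM16, 0.038 for TRIM24, −0.019 for TRIM39 and −0.153 for TRIM65. With the block added they were 0.306, −0.066, −0.044, 0.406, −0.069, −0.116, 0.047, −0.007 and −0.146 for TRIM2, TRIM3, TRIM9, TRIM13, TRIM14, TRIM16, TRIM24, TRIM39 and TRIM65, and of these TRIM2 and TRIM13 passed as higher (adjusted p = 0.0138 and 0.0236). Library size alone gave −0.028 for TRIM3 and −0.032 for TRIM5, and TRIM32 was at 0.034 with upper quartile scaling and at 0.012 with no filter. With single libraries left out the ranges were −0.281 to 0.099 for TRIM13, −0.016 to 0.162 for TRIM14, −0.212 to 0.312 for TRIM16, −1.380 to 0.684 for TRIM17, −0.221 to 0.273 for TRIM3, −0.062 to 0.008 for TRIM32, −0.168 to 0.932 for TRIM36, −0.178 to 0.254 for TRIM38, −0.063 to 0.211 for TRIM39, −0.068 to 0.347 for TRIM41, −0.030 to 0.095 for TRIM44, −0.036 to 0.055 for TRIM5, −0.112 to 0.169 for TRIM65, −1.676 to 0.018 for TRIM66, −0.930 to 0.099 for TRIM7, −0.024 to 0.146 for TRIM71 and 0 to 0.087 for TRIM9. Apart from the settings that differ by their own construction, the cause of these changes was not tested. An arm with 1 library left was assumed to vary like the other. Precision was limited by 2 libraries per group.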
